A study of Mus musculus with 2 samples.

Results

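Red blood cell barcodes were droplets in which hemoglobin transcripts made up most of the RNA. They were chosen by a rule on the readout itself, that Hba-a1, Hba-a2, Hbb-bs and Hbb-bt together take at least 50% of the unique molecular identifiers (UMIs, 1 per captured transcript) of a deposited barcode, with no other filter. The rule found 76 of 3109 barcodes. Of these, 41 of 1621 came from the EL1 library (2.53%, exact Clopper-Pearson 95% interval 1.82 to 3.42) and 35 of 1488 from the WTg library (2.35%, 1.64 to 3.26). Intervals in this text cover counting error only. A lysis step for red blood cells preceded capture and can set these shares, so they do not measure the red blood cells of the tumour.

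The study profiled pancreatic tumours of transgenic mice by 10x single-cell 3′ RNA sequencing, with 1 library for each of 2 genotypes. EL1 mice are FVB/N animals that carry SV40 T antigen and firefly luciferase, each under the elastase I promoter, which is active in pancreatic acinar cells. WTg mice carry the same transgenes and, in addition, the Mettl3 open reading frame under the CAG promoter; that transgene was made in C57BL/6, so strain background and Mettl3 cannot be told apart between the libraries. Both libraries were of mice aged 6 weeks. How many animals gave each library, and of which sex, is not stated. The tumours were digested with collagenase and DNase, filtered, treated with a buffer that lyses red blood cells, and stained for dead cells. With 1 library a genotype there is no replicate check, no test and no p-value, and every difference below compares these libraries.

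Hemoglobin is a tetramer of alpha and beta chains, each holding haem. In adult mice the alpha chains come from Hba-a1 and Hba-a2 and the beta chains from Hbb-bs and Hbb-bt. A red blood cell loses its nucleus, then its mitochondria and most other RNA while it is a reticulocyte, so that globin transcripts dominate what is left. The enzyme that starts haem synthesis in this lineage is Alas2, and many of the other transcripts that persist encode ferritins, ubiquitin-pathway proteins and antioxidant enzymes.

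The globin genes sit in clusters of near copies, which bears on every ratio below. In the GENCODE M21 annotation of GRCm38, Hba-a1 lies at chr11:32283511-32284465 and Hba-a2 at chr11:32296489-32297298, both on the plus strand. Hbb-bt lies at chr7:103812524-103813996 and Hbb-bs at chr7:103826534-103828096, both on the minus strand, and Alas2 at chrX:150547375-150570638 on the plus strand. The annotated Hba-a1 and Hba-a2 transcripts (699 and 554 bases) differed at 1 of 538 aligned bases, C577T, counted from 1 at the first base of the Hba-a1 transcript, in the coding part and 122 bases before its annotated end. The Hba-a2 transcript runs 16 bases further at its 3′ end. Hbb-bs and Hbb-bt (628 and 703 bases) differed at 46 of 626 aligned bases. Only 1 of these was coding, 9 were in the 5′ and 36 in the 3′ untranslated region, the end that a 3′ library reads. The bases below show how little separates each pair within its coding part. They are taken from the GENCODE transcripts, 5′ to 3′, with the differing base in capitals.
Hba-a1: gcatgcctctctggaCaaattccttgcctc
Hba-a2: gcatgcctctctggaTaaattccttgcctc
Hbb-bs: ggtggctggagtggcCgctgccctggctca
Hbb-bt: ggtggctggagtggcTgctgccctggctca
The split of UMIs between Hba-a1 and Hba-a2 is therefore uncertain. Within the aligned bases it rests on 1 difference, and the reference genome is that of C57BL/6. How many reads cover that base was not tested. Reads that cannot be assigned to 1 gene of a pair may also be missing from the alpha or beta sum, and how many were lost was not tested. Whether alleles of the mouse strains changed the alpha or beta counts was not tested either.

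The rule left no doubtful members. The lowest globin share inside it was 85.6% in EL1 and 80.6% in WTg, and the highest outside it 14.2% and 4.26%. No barcode of either library lay between 20% and 80%. Over all members, globin took 94.7% of 84750 UMIs in EL1 and 94.8% of 107296 UMIs in WTg. These shares follow from the rule and are given as a description.

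**Figure D1:**
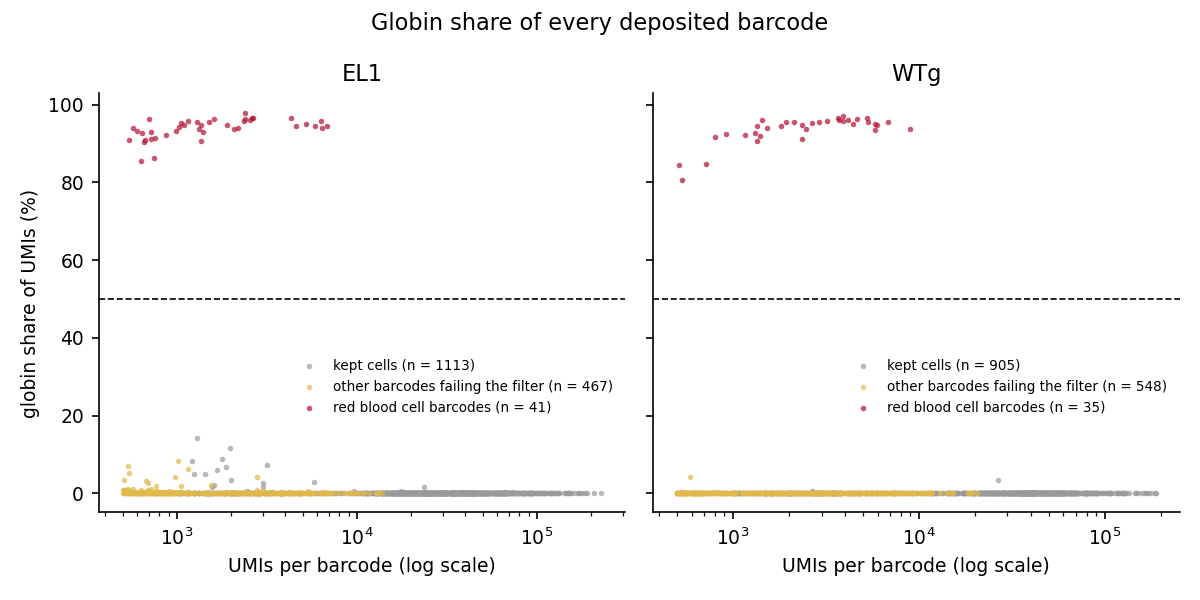
Globin share of UMIs (%) against UMIs per barcode (log scale) for every deposited barcode of EL1 (left) and WTg (right); the dashed line is the rule at 50%. The 41 and 35 red blood cell barcodes stand above 80%, and the highest other barcode is at 14.2% in EL1 and 4.26% in WTg.

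Red blood cell barcodes were small and simple. UMIs per barcode ranged from 540 over a median of 1354 to 6848 in EL1 and from 512 over 2473 to 8956 in WTg. Genes per barcode ranged from 23 over 56 to 176 in EL1 and from 44 over 83 to 254 in WTg. After each barcode was thinned to 500 UMIs, the median was 29 genes in EL1 and 27 in WTg, against 325 and 308 in kept cells. Kept cells are the other barcodes that reach 500 genes and 1000 UMIs with no more than 20% of UMIs from mitochondrial genes (1113 in EL1, 905 in WTg). None of the members reached 500 genes, so none was a kept cell. They made up 8.07% of the 508 barcodes that missed that filter in EL1 and 6.00% of the 583 in WTg. The deposited dense tables, which hold 1471 and 1346 barcodes, contained 0 of the EL1 and 1 of the WTg red blood cell barcodes. The libraries shared 15 barcode sequences, of which 0 belonged to a member in either library.

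The genes that name the cells were checked next. Alas2 was present in 32 of 41 members of EL1 (160 UMIs) and 29 of 35 of WTg (232 UMIs). Among kept cells it was seen in 12 cells of EL1 (1.08%) and 1 of WTg, although those cells held a median of 26543 and 34836 UMIs. Some markers of nucleated erythroid precursors were not seen. Gata1 and Klf1, transcription factors of the lineage, and Tfrc, the transferrin receptor that takes up iron, had 0 UMIs in both libraries. Of 10 transcription factors listed, Lmo2 and Zfpm1 were seen, with 3 UMIs together in EL1, and Zfpm1 with 1 in WTg. On the non-globin scale, counts per 1e+06 UMIs of genes other than the globins (CPM), 3 counts would have been 673 CPM in EL1 and 538 in WTg. The submitters label the cell type of both samples as epithelial, and in the members the epithelial keratin Krt8 had 12 and 13 UMIs.

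Alpha globin was outnumbered by beta globin in both libraries, and Hba-a1 took a much larger part of alpha globin in WTg than in EL1. In EL1 the members held 15708 UMIs of Hba-a1, 10040 of Hba-a2, 48913 of Hbb-bs and 5631 of Hbb-bt. In WTg they held 29714, 7165, 55411 and 9426 in the same order. All 4 genes were found in every member, down to 2 UMIs of Hbb-bt in EL1.

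Hba-a1 over Hba-a2 was 1.56 (1.53 to 1.60) in EL1 and 4.15 (4.04 to 4.26) in WTg. As a percentage of alpha globin UMIs, Hba-a1 ranged from 47.6 over a median of 61.0 to 67.5 across EL1 members and from 75.9 over 80.7 to 84.2 across WTg members. The ranges did not overlap, so each of the 76 barcodes could be placed in its library by this value alone. The spread within a library was narrow, with a standard deviation of 3.95 percentage points in EL1 and 2.13 in WTg, and a variance 3.04 and 2.97 times that of counting. The lowest EL1 value came from a barcode of 600 UMIs, with 68 of Hba-a1 and 75 of Hba-a2. The share did not follow the UMIs of a barcode (Spearman correlation -0.05 over 41 and -0.14 over 35 barcodes that share a library, as a description).

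Globin UMIs outside the members differed between the libraries in the same direction. Over all kept cells, Hba-a1 over Hba-a2 was 1.76 (1.61 to 1.92) in EL1 and 7.66 (5.83 to 10.2) in WTg, both above the members of their library. In WTg a single cell at 8.26 held most of these UMIs. Among kept cells with less than 1% globin, Hba-a1 over Hba-a2 was 1.81 (1.57 to 2.08) in EL1 and 5.54 (3.04 to 10.9) in WTg. The other barcodes that missed the filter gave 1.53 (1.29 to 1.81) and 4.14 (1.78 to 11.2). The value was thus higher in WTg in members, kept cells and other barcodes. Whether it reflects the genes' own output or the assignment of reads was not tested, and genotype and strain cannot be told apart in it.

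Alpha over beta globin was 0.472 (0.465 to 0.479) in EL1 and 0.569 (0.562 to 0.576) in WTg. Across members it ranged from 0.243 over a median of 0.482 to 0.886 in EL1 and from 0.174 over 0.588 to 0.969 in WTg. These ranges overlapped, 8 of 35 WTg members being below the EL1 median and 10 of 41 EL1 members above the WTg median. The alpha share of globin varied 27.6 and 32.3 times more than counting alone gives, so that the pooled intervals are far narrower than the spread between barcodes. At 1000 to 3000 UMIs per barcode the medians were 0.484 over 20 EL1 and 0.588 over 15 WTg members.

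Hbb-bt, the minor beta globin, took a larger part of beta globin in barcodes with more UMIs. It ranged from 0.578% over a median of 8.39% to 17.1% of beta globin UMIs in EL1 and from 1.57% over 12.3% to 22.5% in WTg. Among members below the median UMI count of their library the median share was 4.31% in EL1 and 6.88% in WTg, and among the others 10.3% and 15.3%. The Spearman correlation of share and UMIs was 0.60 over 41 EL1 barcodes and 0.89 over 35 WTg barcodes, which is a description of barcodes from the same library and whose share and UMIs come from the same counts. The range over members exceeded counting error, with a variance 27.7 and 35.8 times that of counting. Alas2 per 1000 globin UMIs went with the Hbb-bt share only weakly (0.18 and 0.26).

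The difference between libraries in Hbb-bs over Hbb-bt was not the same at all depths. It was 8.69 (8.45 to 8.93) in EL1 and 5.88 (5.75 to 6.01) in WTg over all members. Among members of 1000 to 3000 UMIs, a range chosen after the data were seen, it was 9.95 in EL1 and 9.92 in WTg. Above 3000 UMIs it was 7.10 (6.84 to 7.37) over 7 EL1 members and 4.90 (4.78 to 5.02) over 15 WTg members, at medians of 5820 and 4637 UMIs, so the libraries differed there. They also differed at 1000 UMIs or more (8.21 and 5.72) and with each barcode weighted equally (11.4 and 7.80). In the range of 1000 to 3000 UMIs the median shares of Hbb-bt were 8.39% and 7.88%, with ranges of 1.10% to 17.1% and 3.80% to 15.3%.

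**Figure D2:**
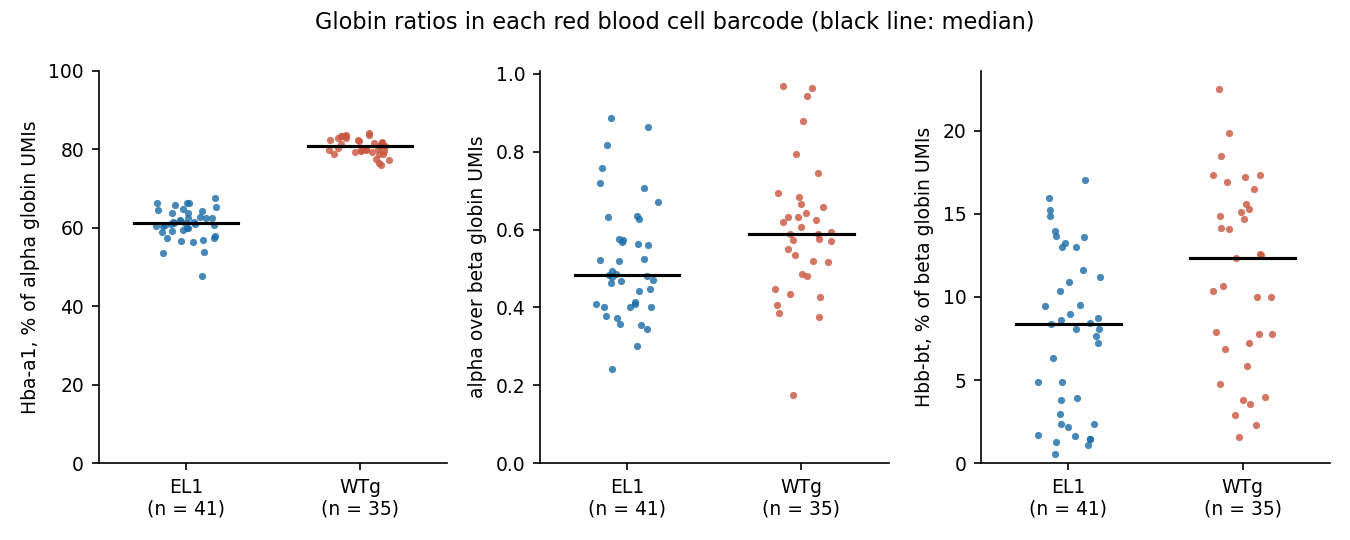
Values of each red blood cell barcode for Hba-a1 as % of alpha globin UMIs (left), alpha over beta globin UMIs (middle) and Hbb-bt as % of beta globin UMIs (right), in EL1 and WTg; each point is a barcode and the black line the median. The left panel has no overlap (47.6 to 67.5% against 75.9 to 84.2%), while the other panels overlap.

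**Figure D3:**
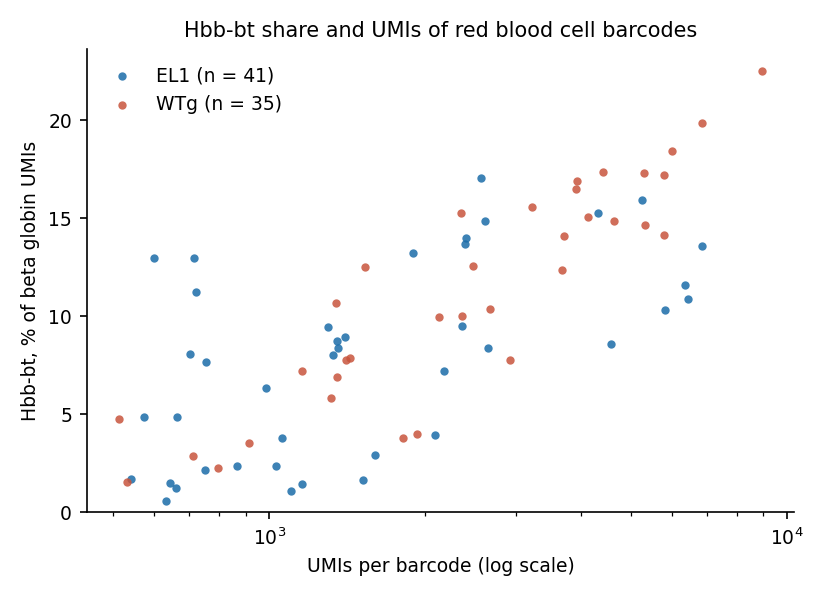
Hbb-bt as % of beta globin UMIs (vertical axis) against UMIs per barcode (horizontal axis, log scale) for 41 EL1 and 35 WTg red blood cell barcodes. The share goes from 0.578% to 17.1% in EL1 and from 1.57% to 22.5% in WTg, and the high values lie mostly at high UMI counts.

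Most globin UMIs of a library were inside the members, 94.7% of 84803 in EL1 and 98.8% of 102943 in WTg. Outside them, globin was more frequent in EL1. Among kept cells, 41.0% (38.1 to 43.9) in EL1 and 21.7% (19.0 to 24.5) in WTg held at least 1 globin UMI, at medians of 26543 and 34836 UMIs. The level over kept cells was 94.4 CPM over all UMIs in EL1 and 34.8 in WTg. In WTg a single kept cell held 897 of the 1149 globin UMIs (78.1%), and without it the level was 7.64 CPM. In EL1, 16 kept cells with at least 1% globin held 2084 of the 3585 globin UMIs, and without them the level was 39.6 CPM.

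Globin outside the members had another alpha to beta ratio in EL1. Alpha over beta was 1.62 (1.52 to 1.74) over 3585 globin UMIs of EL1 kept cells and 1.83 (1.60 to 2.10) in the other barcodes that missed the filter, against 0.472 in the members. In EL1 kept cells below 1% globin it was 1.33 (1.20 to 1.47). In WTg kept cells below 1% globin it was 0.509 (0.387 to 0.665), below the 0.569 of the members but with an interval that includes it. The pooled value of all WTg kept cells, 0.801, rested on the single cell, which held 426 alpha and 471 beta globin UMIs. The highest EL1 member value was 0.886, so no member reached the ratio found outside.

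The barcodes with most globin outside the rule were mixed. The leading WTg cell had 26768 UMIs, of which 6163 were of the acinar list, with 7 UMIs of Alas2, 466 of Hbb-bs and 5 of Hbb-bt. The leading EL1 cell had 23502 UMIs, with 393 globin UMIs, 6 of Alas2 and 1847 of the macrophage list. Kept cells with at least 1% globin numbered 16 in EL1 and 1 in WTg.

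Of 9 other globin genes listed, 6 have a row in the matrix, with 6 UMIs in EL1 and 1 in WTg. Hbb-b1, Hbb-b2 and Hbb-bh0 have no row, so they could not be measured. Hbq1b, a theta globin gene beside Hba-a1, had 4 UMIs in EL1 and 1 in WTg, and Hbq1a 2 and 0. The embryonic genes Hba-x, Hbb-y, Hbb-bh1 and Hbb-bh2 had 0 UMIs in both libraries.

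Outside globin, the members held 4458 UMIs in EL1 (26 over a median of 69 to 392 per barcode) and 5580 in WTg (58 over 126 to 549). Of 80 genes in the erythroid lists, 76 have a row in the matrix, and together they gave 23.4% (22.2 to 24.7) of the non-globin UMIs in EL1 and 22.3% (21.2 to 23.4) in WTg. In kept cells the same genes gave 0.870% and 0.724%, which is 26.9-fold and 30.8-fold less. Erythroid UMIs were found in 40 of 41 and 35 of 35 members, and the exception was an EL1 barcode of 715 UMIs with 93.0% globin.

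A gene was compared between members and kept cells of its library where it had at least 5 non-globin UMIs seen or expected, and called past a 2-fold difference with an interval that excludes equality. Over 202 genes of EL1, 39.1% were higher in members and 18.8% lower, and over 236 genes of WTg 36.9% were higher and 14.8% lower. The median log2 ratio over these genes was 0.03 in EL1 and -0.05 in WTg. Of the erythroid lists, 23 genes were compared in EL1, of which 22 were higher and 0 lower, and 18 in WTg, all 18 higher. Their medians were 7.04 and 6.87. However, 20 and 15 of them reached the minimum only through the members, and such a gene had to differ, so these counts are a description. The gene lists were chosen with earlier results of these data known. The remaining 53 and 58 genes with a row were too low in both groups to be compared.

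Haem synthesis was carried by its first and last enzymes. Alas2 gave 160 and 232 UMIs, the most of any gene except Gm42418, with kept cells at 0.527 and 0.212 CPM and log2 ratios of 16.06 (15.38 to 16.81) in EL1 and 17.58 (16.51 to 18.91) in WTg. The size of this ratio rests on few UMIs in kept cells. In EL1 it was 13.14 with each barcode weighted equally, and against the other barcodes that missed the filter it was 12.72 in EL1 and 15.16 in WTg. Per barcode it ranged from 0 over a median of 2 to 14 UMIs in EL1 and from 0 over 6 to 26 in WTg. Fech, ferrochelatase, which inserts the iron, gave 20 and 29 UMIs (log2 7.31 and 7.85). Of the enzymes in between, Urod had 1 UMI in WTg, and Alad, Uros, Cpox and Ppox had 0 in both.

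Among iron genes, the mitochondrial iron importer Slc25a37 gave 22 UMIs in EL1 and 25 in WTg (log2 8.50 and 8.77). The ferritin light chain Ftl1 was in 35 of 41 and 32 of 35 members, with 139 and 203 UMIs and log2 3.88 and 4.21. The heavy chain Fth1 gave 53 and 69 UMIs (2.52 and 2.73). Kept cells also express both ferritins, at 2118 and 1972 CPM for Ftl1, so the ratios are smaller than that of Alas2. Slc11a2, Steap3 and Abcb10 had 0 UMIs.

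The largest group of erythroid UMIs came from genes of reticulocyte maturation, 9.31% and 8.23% of non-globin UMIs. Ube2l6, a conjugating enzyme of the ISG15 and ubiquitin pathway, gave 53 and 56 UMIs at log2 13.29 and 12.88. The ubiquitin ligase Mkrn1 gave 83 and 100 (7.95 and 8.58) and the polyubiquitin gene Ubb 72 and 102 (3.01 and 3.83).
Bnip3l, the receptor by which reticulocytes clear mitochondria, gave 55 and 40 UMIs (7.04 and 6.57). Tent5c, a poly(A) polymerase, gave 46 and 48 (8.22 and 8.06), and the exonuclease gene Isg20 gave 20 and 33 (5.41 and 5.35). Adipor1 had 10 and 5 UMIs. Of 17 genes in the list, Trim58, Xpo7 and Pim1 had 0 UMIs in both libraries.

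Genes of red cell metabolism and redox control followed. Bpgm, which makes the 2,3-bisphosphoglycerate that loosens oxygen from hemoglobin, gave 74 UMIs in 11 of 41 EL1 members and 94 in 20 of 35 WTg members (log2 9.40 and 10.10). The peroxidase genes Gpx1 and Prdx2 gave 43 and 37 (5.89 and 5.37) and 36 and 24 (5.48 and 4.78). Carbonic anhydrase 2, Car2, had 11 UMIs in EL1 and 3 in WTg, within 3 members and 1. Blvrb had 7 in each library, while Car1, Pklr and Hk1 had 0.

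Membrane genes were low although their proteins fill the mature cell. Epb41, protein 4.1, led with 24 and 40 UMIs (log2 6.57 and 7.16). The anion exchanger gene Slc4a1 had 6 and 3 UMIs and Rhag 1 and 0. Bsg, 6 and 4 UMIs, did not pass the call in either library (log2 0.40, -1.05 to 1.52, and 0.10, -1.78 to 1.45). Transcription factors gave 3 UMIs in EL1, of Lmo2 and Zfpm1, and 1 in WTg, of Zfpm1.

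**Figure D4:**
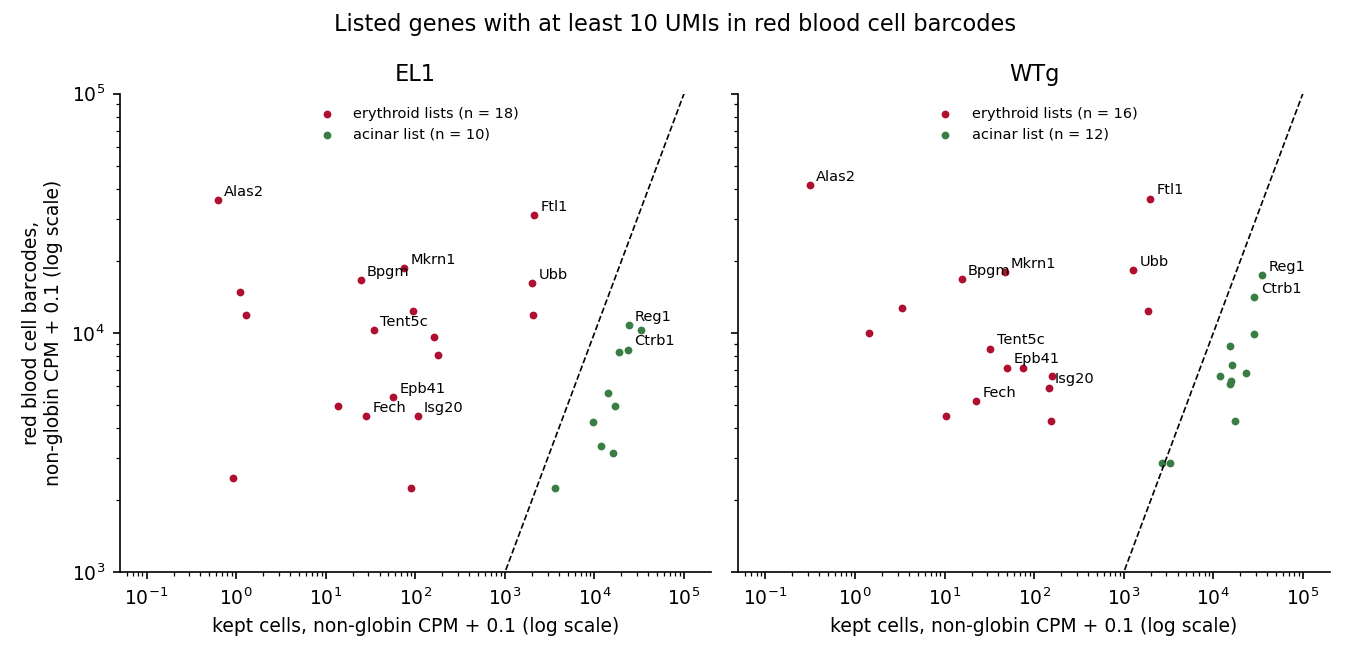
Level in red blood cell barcodes (vertical axis) against kept cells (horizontal axis) in non-globin CPM plus 0.1, log scales, for listed genes with at least 10 UMIs in the members of EL1 (left) or WTg (right); the dashed line marks equal levels. Erythroid genes lie above the line with Alas2 farthest, and acinar genes lie near or below it. A gene rare in kept cells enters the plot only where it is high in members, so its place above the line follows from the minimum of 10 UMIs.

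Several of the most abundant transcripts were in no list. Gm42418 had the most UMIs, 327 in 40 of 41 EL1 members and 400 in all 35 of WTg (log2 5.46 and 4.82 over kept cells), and AY036118 had 76 and 64 (6.90 and 6.34). These genes overlap over 923 bases on opposite strands at chr17:39846958-39848788 and chr17:39847113-39848035. How reads were assigned between them was not tested. Tpt1 gave 64 and 91 UMIs (1.47 and 1.82), Oaz1, an inhibitor of polyamine synthesis, 63 and 95 (4.30 and 4.87), and the small GTPase gene Arf5 67 and 43 (5.68 and 5.06). Prxl2a gave 40 and 21 (9.73 and 8.50), confined to 7 and 8 members. Fam220a (12 and 10), March2 (14 and 30) and Rsad2 (8 and 11) lay more than 7 log2 units above kept cells. Of the 10 genes with most UMIs, 7 were shared by the libraries, and of the 10 highest over kept cells, 8.

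Mitochondrial transcripts were few in number, and in most members their share of non-globin UMIs was below that of kept cells. Pooled over members, they gave 3.30% of non-globin UMIs in EL1 and 3.82% in WTg, against 4.45% and 4.12% in kept cells. The log2 ratios were -0.43 (-0.67 to -0.20) in EL1 and -0.11 (-0.31 to 0.08) in WTg. The median share over members was 1.79% in EL1 and 0.917% in WTg. The other barcodes that missed the filter held 42.1% and 46.7%. No mitochondrial UMI was found in 9 EL1 and 13 WTg members. Of the mitochondrial genes, mt-Co1 had the most UMIs in WTg, 110 in 16 members, against 55 in 21 members of EL1. A single EL1 member, of 2177 UMIs, held 57 of the 147 mitochondrial UMIs of its library, 42.9% of its own non-globin UMIs. Ribosomal protein genes gave 10.0% and 10.4% of non-globin UMIs, against 13.0% and 11.8% in kept cells. Of the proliferation list, Ube2c had 8 and 9 UMIs and the other 7 genes 0.

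Every red blood cell barcode also held transcripts of the acinar list, which covers digestive enzymes and other products of pancreatic acinar cells. UMIs of the 24 genes of the acinar list ranged from 1 over a median of 7 to 16 per member in EL1 and from 5 over 15 to 36 in WTg. In total they were 290 UMIs, 6.51% (5.80 to 7.27) of non-globin UMIs, in EL1 and 548 UMIs, 9.82% (9.05 to 10.6), in WTg. Kept cells held 18.5% and 22.5%, so the members stood at 35.2% and 43.7% of the kept cell level (log2 -1.51 and -1.19). With each barcode weighted equally the log2 ratios were -0.76 and -0.69. Whether these UMIs were free RNA in the droplet or came from an attached cell was not tested. Of 14 genes compared in EL1, 12 were lower in members and 0 higher, and of 16 in WTg 10 were lower and 0 higher, beside the 18.8% and 14.8% of all genes called lower. Against the other barcodes that missed the filter, the acinar share of members was -0.15 log2 in EL1 and 0.26 in WTg, with 0 genes lower in either. Those barcodes were 42.1% and 46.7% mitochondrial, and with mitochondrial UMIs left out of the base the values were -0.89 and -0.59.

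Acinar UMIs did not go with globin UMIs across members, whereas erythroid UMIs did. The Spearman correlation with globin UMIs was -0.11 over 41 EL1 and -0.02 over 35 WTg barcodes for the acinar list, and 0.81 and 0.91 for the erythroid lists, as a description of barcodes that share a library. In EL1 the member with the most UMIs, 6848, held 8 acinar and 124 erythroid UMIs. In WTg the one with 8956 UMIs held 36 and 131.

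**Figure D5:**
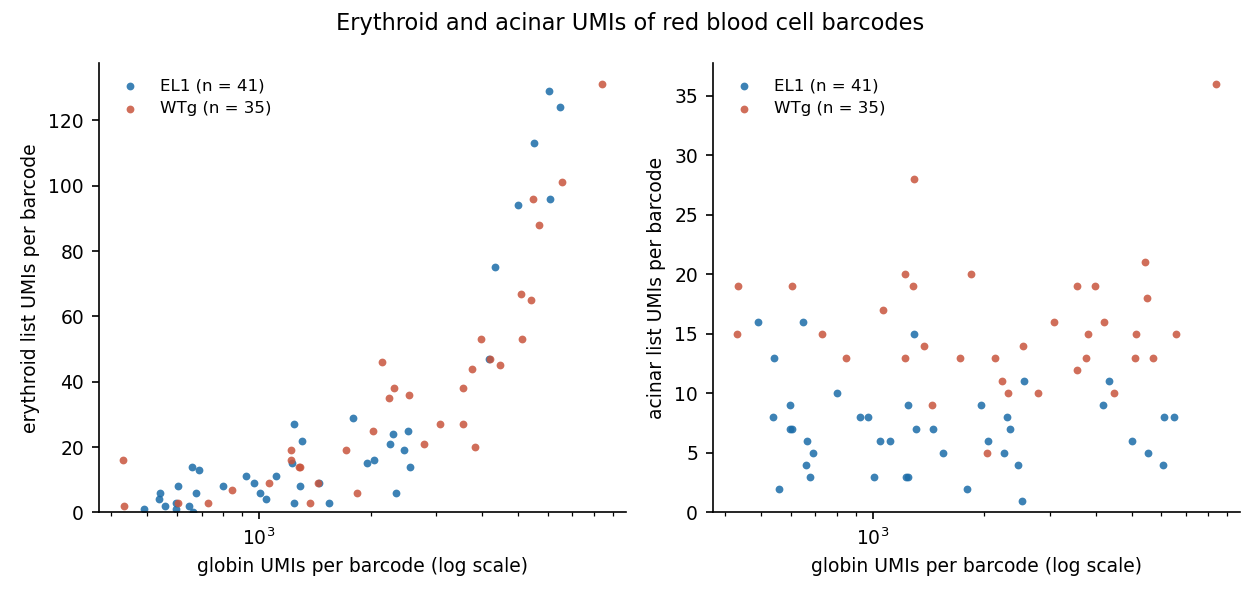
UMIs of the erythroid lists (left) and of the acinar list (right) per red blood cell barcode against its globin UMIs (log scale), for 41 EL1 and 35 WTg barcodes. Erythroid UMIs climb with globin UMIs up to 129 and 131, while acinar UMIs stay between 1 and 16 in EL1 and between 5 and 36 in WTg at all globin levels.

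The acinar genes with most UMIs in EL1 members are given with their values in both libraries. Reg1, a secreted lectin of the exocrine pancreas, gave 48 UMIs in EL1 and 97 in WTg (log2 -1.17 and -1.02 over kept cells). The trypsinogen genes Try5 and Prss2 gave 46 and 55 (-1.67 and -1.52) and 37 and 34 (-1.19 and -1.33). The chymotrypsinogen gene Ctrb1 gave 38 and 79 (-1.46 and -1.03), the carboxypeptidase gene Cpb1 25 and 49 (-1.34 and -0.80, the latter not called), and the elastase gene Cela2a 22 and 38 (-1.78 and -1.76).
Among the genes lowest against kept cells in EL1 were Cel (3 UMIs, log2 -2.71), the trypsinogen-like Gm2663 (9, -2.43), Chga and the stress gene Nupr1 (2, -2.38). In WTg they were Chga, mt-Nd4 (3, -2.14), Cpa1 (24, -2.01), Gm2663 (6, -2.00) and Clu (5, -1.84).
Across the 24 genes, log2 levels (after adding 10 CPM) of the members and of kept cells had a Pearson correlation of 0.94 in EL1 and 0.95 in WTg. Against kept cells of the other library it was 0.92 for EL1 members and 0.86 for WTg members. These are correlations across genes, which are not independent, and serve as a description. Near-identical trypsinogen copies make the split between those genes uncertain.

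Transcripts of other cells had fewer UMIs, though not all were lower than the acinar list relative to kept cells. The ductal list gave 24 and 29 UMIs, of which Krt8 and Krt18 (11 and 14) made up nearly all. The neuroendocrine list gave 4 and 1, with Chga at 3 and 1 against 3560 and 2134 CPM in kept cells (log2 -2.40 and -3.57). The macrophage list gave 6 UMIs in EL1 and 7 in WTg, of which Apoe had 3 and 4. As a percentage of the kept cell level, the ductal list stood at 47.1 in EL1 and 47.2 in WTg. The neuroendocrine list stood at 20.1 and 5.75, and the macrophage list at 124 (45.6 to 270) and 64.4 (25.9 to 133). The acinar list was at 35.2 and 43.7. The lists for neutrophils, T and NK cells, B cells, endothelial cells and fibroblasts had 0 UMIs in both libraries, where 3 counts would have been 0.0673% of non-globin UMIs in EL1 and 0.0538% in WTg. Kept cells were also below these levels for each of those lists. The highest was the T and NK list, at 0.0192% in EL1 and 0.0174% in WTg. The values of 0 therefore do not show that such RNA was absent. The platelet gene Pf4 had 1 UMI in EL1. The nuclear RNA Malat1 had 14 and 36 UMIs, in 11 and 23 members (log2 -1.78 and -0.68). Mettl3 itself had 0 UMIs in both; kept cells held it at 15.1 CPM in EL1 and 66.7 in WTg, both below the 673 and 538 CPM of 3 counts, so that the transgene was not detectable at this depth.

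Between the libraries, the acinar part of the members was larger in WTg, while the erythroid part was close to equal. WTg over EL1 on the non-globin CPM scale was -0.07 log2 (-0.19 to 0.05) for all erythroid lists, 0.21 (-0.08 to 0.51) for Alas2 and 0.59 (0.39 to 0.80) for the acinar list, which in kept cells was 0.28. Of 80 genes that had 20 UMIs or more in the members of EL1 and WTg together, 5.0% were called higher in WTg and 5.0% lower, that is 4 in each direction. With members of at least 1000 UMIs the erythroid value was -0.17 (-0.30 to -0.05). Over all members the metabolism and redox list alone was at -0.37 (-0.69 to -0.06), so the lists did not all stay within counting error. Of the erythroid lists 16 genes were compared, with 0 higher and 0 lower and a median log2 of -0.02 beside 0.04 for all 80. The acinar list had 2 of 11 higher and 0 lower, with a median of 0.65. Across the 80 genes the Pearson correlation of log2 levels between the libraries was 0.77.

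The named genes at the ends followed the list split in part. Gm10334, at chr6:41442216-41446145, had 1 UMI in EL1 and 28 in WTg (log2 4.48, 1.89 to 9.84), and in kept cells the difference was 4.79. Pnliprp1, a pancreatic lipase-related gene, had 10 and 41 (1.71, 0.69 to 2.87; kept cells 2.19), and Cela3b 4 and 16 (1.68, 0.04 to 3.72; kept cells 3.45). Those genes thus differed in the same direction in the kept cells of the same libraries. Malat1 was the other gene called higher (1.04, 0.11 to 2.04), while kept cells gave -0.06. Myl6 (6 and 16) and 1810058I24Rik (5 and 15) had intervals that include 0.
At the other end, mt-Cytb had 18 and 7 UMIs (-1.69, -3.19 to -0.36), Gnas 27 and 12 (-1.49, -2.61 to -0.46) and Prxl2a 40 and 21 (-1.25, -2.09 to -0.46). Cd24a, the surface marker, was the last of the 4 called lower (27 and 16 UMIs, -1.08, -2.07 to -0.13) and was chosen for mention after its values were seen. The EL1 member with 57 mitochondrial UMIs held 11 of the 18 UMIs of mt-Cytb. Pabpc1 and Eif5, both 14 and 7, had intervals that include 0.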

How the data were processed

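The 2 libraries were 10x Chromium 3′ v3.1 preparations. The authors made UMI counts per gene and barcode with Cell Ranger (6.0.2 in the matrix header), and the labels name R 4.1, Seurat 4.0.5 and build GRCm38. The deposited matrices list 32285 genes, with 39171674 UMIs in EL1 and 34871992 in WTg. Whether intronic reads were counted is not given in the sources used here.

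Groups came from the labels. UMIs were summed over barcodes, and non-globin genes are given as CPM of non-globin UMIs, since the rule fixes the globin share. Intervals are exact at 95% (Clopper-Pearson for shares, conditional binomial for ratios). A gene at 0 was set to 3 counts and read as a bound. Named genes were those of the lists, the 10 with most UMIs, the 10 highest and 5 lowest over kept cells, and the 5 highest and 5 lowest between libraries. Some of these genes are not reported here. Members and lists were chosen with earlier results of these data known. No doublets were removed. Scripts (Python 3.11.15, scipy 1.17.1) were tested on simulated data. Alternatives changed the globin threshold, the barcodes, the weighting, the base, the reference and the minimum count.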

Additional observations from a re-analysis of the deposited data

How the results depend on the processing

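Over 29 values and 249 alternatives, 180 stayed within their band and 68 moved outside it. Only 1 turned the direction of a value whose interval excluded 0. The band was the counting interval, for counts of genes 1.5 times, and for genes per barcode the quartiles. WTg over EL1 also changed sign where the interval included 0. It went from -0.07 to 0.16 and 0.10 for the erythroid lists and from 0.21 to -0.38 for Alas2. These sign changes were counted as moved. No paired analysis was possible because each genotype has 1 library and no result comes from a test. Globin thresholds of 30% and 80% and a limit of 500 genes chose the same 76 barcodes, so values under them could not move. A limit of 20% mitochondrial among non-globin UMIs dropped no WTg barcode, the highest being at 14.2%. The values of WTg alone could not move under it either. All of these are among the 180, so that number overstates how stable the values were.

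Against the other barcodes that missed the filter, the acinar list was at -0.15 log2 in EL1 and 0.26 in WTg, the turn, with 0 genes lower in each. Against the same barcodes, the erythroid lists were at 6.27 and 6.59 and Alas2 at 12.72 and 15.16. With mitochondrial UMIs also left out of the base, chosen after seeing the data, the acinar list was at -0.89 and -0.59, with 5 and 3 genes lower.

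With at least 1000 UMIs, EL1 held 1.67% red blood cell barcodes, alpha over beta of 0.462, Hbb-bs over Hbb-bt of 8.21, 26.5% erythroid UMIs (4.93 log2 over kept cells) and 4.84% acinar UMIs (-1.93). WTg then gave Hbb-bs over Hbb-bt of 5.72 and 23.5% erythroid UMIs. WTg over EL1 for the acinar list was 0.90, with 8 genes higher.

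With each barcode weighted equally, alpha over beta was 0.504 and 0.582, Hbb-bs over Hbb-bt 11.4 and 7.80, erythroid UMIs 17.5% and 19.5% (4.21 and 4.64), and acinar UMIs 9.53% and 12.4% (-0.76 and -0.69). Alas2 in EL1 was at 13.14, and WTg over EL1 was 0.16 for the erythroid lists and 0.38 for the acinar list. This weighting gives no interval, so no counts of genes.

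The restriction to 1000 to 3000 UMIs was chosen after seeing the data. There alpha over beta in EL1 was 0.488, Hba-a1 over Hba-a2 in EL1 1.52, Hbb-bs over Hbb-bt 9.95 and 9.92, and acinar UMIs 7.59% and 12.9% (-1.28 and -0.79), with 7 acinar genes lower in EL1. WTg over EL1 was 0.10 for the erythroid lists and -0.38 for Alas2. Above 3000 UMIs, also chosen later, Hbb-bs over Hbb-bt was 7.10 and 4.90, and in EL1 alpha over beta was 0.440 and Hba-a1 over Hba-a2 1.61.

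The dense tables held 0% and 0.0743% red blood cell barcodes, so EL1 gave no value. The 1 WTg barcode gave 0.625, 3.96 and 3.44 for the ratios, 23.9% erythroid UMIs (5.04, 11 genes higher) and 6.56% acinar UMIs (-1.78). A minimum of 1 UMI gave 34 and 28 erythroid genes higher. Medians of genes were 41 and 40 when thinned to 1000 UMIs and 56 and 83 when not thinned.

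The members carry few non-globin UMIs, and 3 counts correspond to 673 CPM in EL1 and 538 in WTg. Animals, strain and capture of each library cannot be told apart.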
